A study of Homo sapiens with 47 samples.

Results

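H3K27ac across the genome was compared between Ishikawa cells that expressed dCas9-VP16(10x) and Ishikawa cells that expressed dCas9-p300(core), at sites away from the loci to which the fusions had been directed. All 20 H3K27ac peak lists of the 47 ChIP-seq samples entered the comparison, 10 lists per construct with every gRNA set pooled. Peaks of the 20 lists were merged wherever they shared at least 1 bp, which gave 41675 intervals. Of these, 32 lay within 5 kb of the 19 targeted loci and were left out, so that 41643 intervals remained.

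Acetylation of lysine 27 on histone H3 is a mark of active promoters and enhancers. The acetyltransferase p300, encoded by EP300, writes this mark, and its core keeps the bromodomain and the catalytic domain. VP16 is an activation domain of a herpesvirus protein with no enzyme activity of its own, and it acts through Mediator, general transcription factors and acetyltransferases of the host cell. The comparison therefore sets a recruiter of coactivators beside an enzyme that acetylates histones itself.

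Ishikawa is an endometrial adenocarcinoma line that carries estrogen receptor α. Cells of all groups were kept in hormone-depleted medium and received plasmids for a dCas9 fusion and for gRNAs by transient transfection, and no list of cells without a fusion was analysed here. Each construct was used with 5 gRNA sets, in 2 replicates each. Pool 1, Pool 2 and Pool 3 held gRNAs for estrogen receptor binding sites near MMP17, CISH, FHL2 and HES2, Adjacent held gRNAs for neighboring regions, and IL1RN held gRNAs for the IL1RN promoter as the control. The dCas9-VP16(10x) Adjacent replicate 1 library is labelled as having received the Adjacent and IL1RN gRNAs together. No label says that replicates came from separate cultures, so the p-values given here measure the spread between these libraries, which may be technical.

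Promoters of epithelial genes carried H3K27ac peaks in lists of both constructs. All 10 promoters of an epithelial list had a peak in at least 10 of the 20 lists, and those of KRT8, KRT18, GRHL2 and ELF3 had one in all 20. In 4 dCas9-p300(core) lists the peak names carry no number of the kind taken below as a run identifier. In these 4, CDH1, KRT19 and CLDN3 had no promoter peak and EPCAM had one in 1. Of 10 endometrial genes, 6 reached 10 lists, and PAX8 and ESR1 (the estrogen receptor gene) had a promoter peak in all 20, whereas FOXA2 had none in any list and PGR had one in 4 lists. Of 10 genes of other lineages, 8 had no promoter peak in any list, and SPI1 and GFAP had one in 1 list each.

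Sequences are shown for 1 exon of EP300, at which fold enrichment did not overlap between the constructs within the lists that share such an identifier. They are also shown for the summits at 3 intervals with the lowest p in 1 direction of a genome-wide comparison. All are hg19, plus strand. Exon 24 of EP300 (chr22:41564433-41564623) is given with 20 intron bases on either side, the exon in capitals. PLEKHG3 (promoter, chr14:65203744-65203943) led the comparison of peak occurrence among intervals more frequent with dCas9-VP16(10x), and SCNN1A (chr12:6486196-6486395) and STK40 (promoter, chr1:36851160-36851359) led the comparison of enrichment. In these 3 windows of 200 bases, capitals mark matches to GGGCGG (the SP/KLF motif) on either strand.
EP300 exon 24: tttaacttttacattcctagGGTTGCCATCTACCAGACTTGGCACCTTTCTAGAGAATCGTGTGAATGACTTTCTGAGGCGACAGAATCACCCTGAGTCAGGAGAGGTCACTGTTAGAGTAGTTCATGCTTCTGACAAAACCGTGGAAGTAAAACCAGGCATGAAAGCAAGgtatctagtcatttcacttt
PLEKHG3: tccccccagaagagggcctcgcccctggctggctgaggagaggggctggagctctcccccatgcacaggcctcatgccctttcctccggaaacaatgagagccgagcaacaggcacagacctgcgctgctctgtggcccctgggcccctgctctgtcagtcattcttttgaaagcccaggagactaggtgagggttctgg
SCNN1A: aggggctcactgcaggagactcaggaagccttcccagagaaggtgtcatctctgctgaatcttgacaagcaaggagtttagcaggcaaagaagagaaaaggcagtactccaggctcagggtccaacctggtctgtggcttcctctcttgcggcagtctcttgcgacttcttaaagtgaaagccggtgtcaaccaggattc
STK40: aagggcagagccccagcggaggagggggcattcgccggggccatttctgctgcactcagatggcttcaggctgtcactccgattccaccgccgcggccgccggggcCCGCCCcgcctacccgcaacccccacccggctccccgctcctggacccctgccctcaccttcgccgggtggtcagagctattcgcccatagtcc

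The 20 lists came in 2 sets. In 11 lists, 5 of dCas9-VP16(10x) and 6 of dCas9-p300(core), the peak names open with the same number. No sample label says what this number means. It was taken here as a sequencing run identifier, and these 11 lists are called the run below. The other 9 lists, 5 and 4, carry none and may come from more than 1 sequencing run. Peak number, width, promoter share, enrichment rank, and similarity and occurrence in lists of equal length were compared with this split as a stratum and again within the run. In the list labelled dCas9-VP16(10x) Pool 1 replicate 2, which carries no identifier, the code in the peak names has a p where the code in the sample title has a v. The label was kept, and peak number, width and occurrence are also given without this list.

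The constructs differed in the number of H3K27ac peaks, mainly outside the run. Over all lists, dCas9-VP16(10x) lists held 5322 to 32052 peaks (median 25025) and dCas9-p300(core) lists 1805 to 24280 (median 6143). The mean log2 number was 14.35 ± 0.75 (SD, n = 10) with dCas9-VP16(10x) against 12.77 ± 1.23 (SD, n = 10) with dCas9-p300(core), a difference of 1.57 (two-sided exact permutation test within batches, p = 0.0035). Without an identifier, the 5 dCas9-VP16(10x) lists held 24890 (Pool 3), 25160 (IL1RN), 27208 (Adjacent), 28585 (Pool 1) and 32052 (Pool 2) peaks. The 4 dCas9-p300(core) lists without an identifier held 1805 (Pool 3), 3020 (Pool 2), 4088 (IL1RN) and 4346 (Pool 1) peaks, all far below (log2 difference 3.13, exact permutation p = 0.0079, the smallest that 5 against 4 lists allow). Without the dCas9-VP16(10x) Pool 1 list, whose names and title disagree, the log2 difference was 3.12 (exact permutation p = 0.0286, the smallest that 4 against 4 lists allow). Within the run the groups overlapped. There dCas9-VP16(10x) lists held 5322, 16463, 19860, 21001 and 26862 peaks and dCas9-p300(core) lists 5599 to 24280 (median 13495), and the log2 difference of 0.40 was within the spread (exact permutation p = 0.457).

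Peaks were also wider with dCas9-VP16(10x). The median width of a list was 578 ± 107 bp (SD, n = 10) with dCas9-VP16(10x) against 420 ± 125 bp (SD, n = 10) with dCas9-p300(core) (exact permutation p = 0.0014). The difference was 225 bp without an identifier (p = 0.0079, exact permutation; 231 bp without dCas9-VP16(10x) Pool 1 replicate 2) and 127 bp within the run (p = 0.0801, exact permutation). The read depth of the libraries is not given in the peak lists, and its part in peak number and width was not tested.

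**Figure D1:**
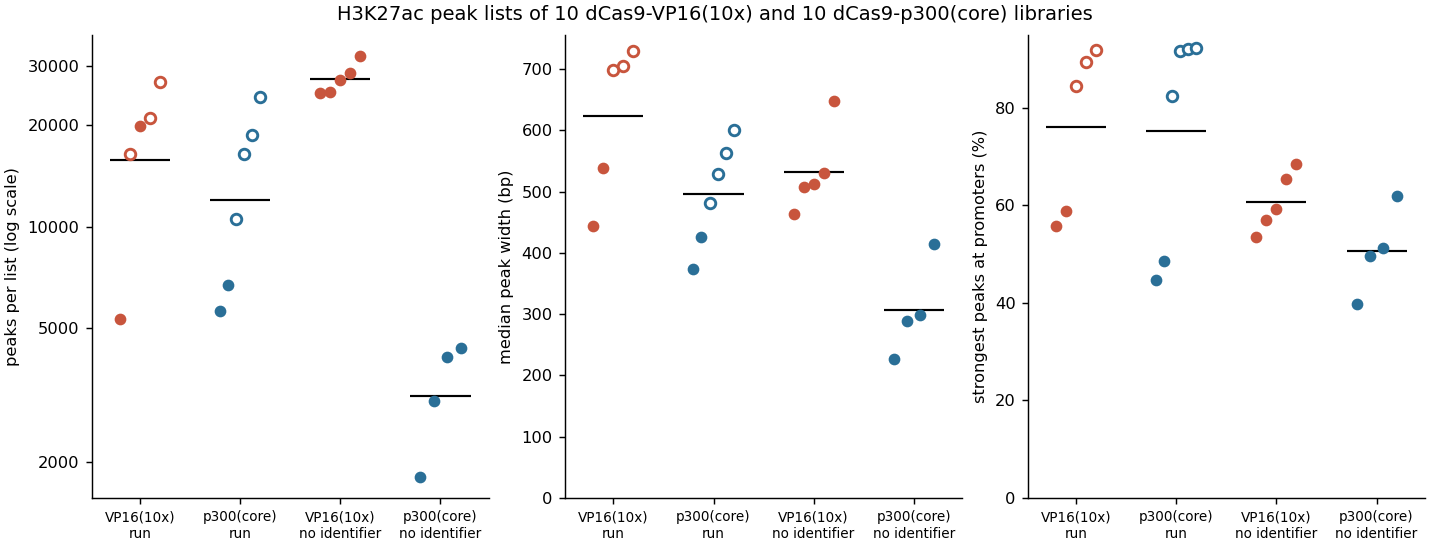
Peaks per list (log axis), median peak width in bp and the percentage of the 1805 strongest peaks at promoters, by construct and by run identifier. Each point is 1 library, black lines are means (on the log scale for peak number), and open points are the 7 libraries with at least 80% of their strongest peaks at promoters. Without an identifier the dCas9-VP16(10x) lists (24890 to 32052 peaks) lie above the dCas9-p300(core) lists (1805 to 4346), whereas within the run the groups overlap.

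The share of H3K27ac peaks at promoters differed between the constructs by less than the spread between lists. A peak was placed at a promoter when it came within 1 kb of the start of a protein-coding transcript. This held for 57.6 ± 4.76% of peaks with dCas9-VP16(10x) against 56.5 ± 9.45% with dCas9-p300(core) (SD, n = 10 each, exact permutation p = 0.533). In lists of equal length, cut to the 1805 peaks of highest fold enrichment because the shortest list held 1805, the shares were 68.4 ± 14.7% and 65.4 ± 21.7% (exact permutation p = 0.485). Within the run they were 76.1 ± 17.4% (n = 5) and 75.2 ± 22.5% (n = 6; exact permutation p = 0.931).

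A set of 7 libraries stood apart in a way that crossed the constructs. All 7 were in the run, and they were dCas9-p300(core) Adjacent replicates 1 and 2, IL1RN replicate 1 and Pool 2 replicate 1, and dCas9-VP16(10x) Adjacent replicate 2, IL1RN replicate 1 and Pool 1 replicate 1. In these, 82.4 to 92.2% of the 1805 strongest peaks lay at promoters, against 39.8 to 68.5% in the other 13. Of their strongest peaks, 92.2 to 99.8% overlapped a peak in at least 10 of the 20 RNA polymerase II (RNAPII) lists, against 46.8 to 85.0% in the others. Results are therefore also given without these 7 libraries, a choice made after their values were seen.

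Lists of the same construct were not more alike than lists of different constructs beyond the spread. Similarity was measured as the Jaccard index, the number of intervals shared by a pair of lists of 1805 peaks over the number in either. The mean was 0.273 within constructs and 0.264 between constructs (exact permutation p = 0.117), and within the run it was 0.429 and 0.453 (exact permutation p = 0.608). The most similar pair of all came from different constructs with the same gRNAs, dCas9-p300(core) IL1RN replicate 1 and dCas9-VP16(10x) IL1RN replicate 1, at 0.721. The 7 libraries that stood apart shared a median of 0.478 of their intervals with each other but 0.164 with the other 13. Without them, lists of the same construct were more alike than lists of different constructs, 0.344 against 0.308 (exact permutation p = 0.0026), and so were the full lists of all libraries, 0.400 against 0.273 (exact permutation p = 0.0018), which also differ in length.

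**Figure D2:**
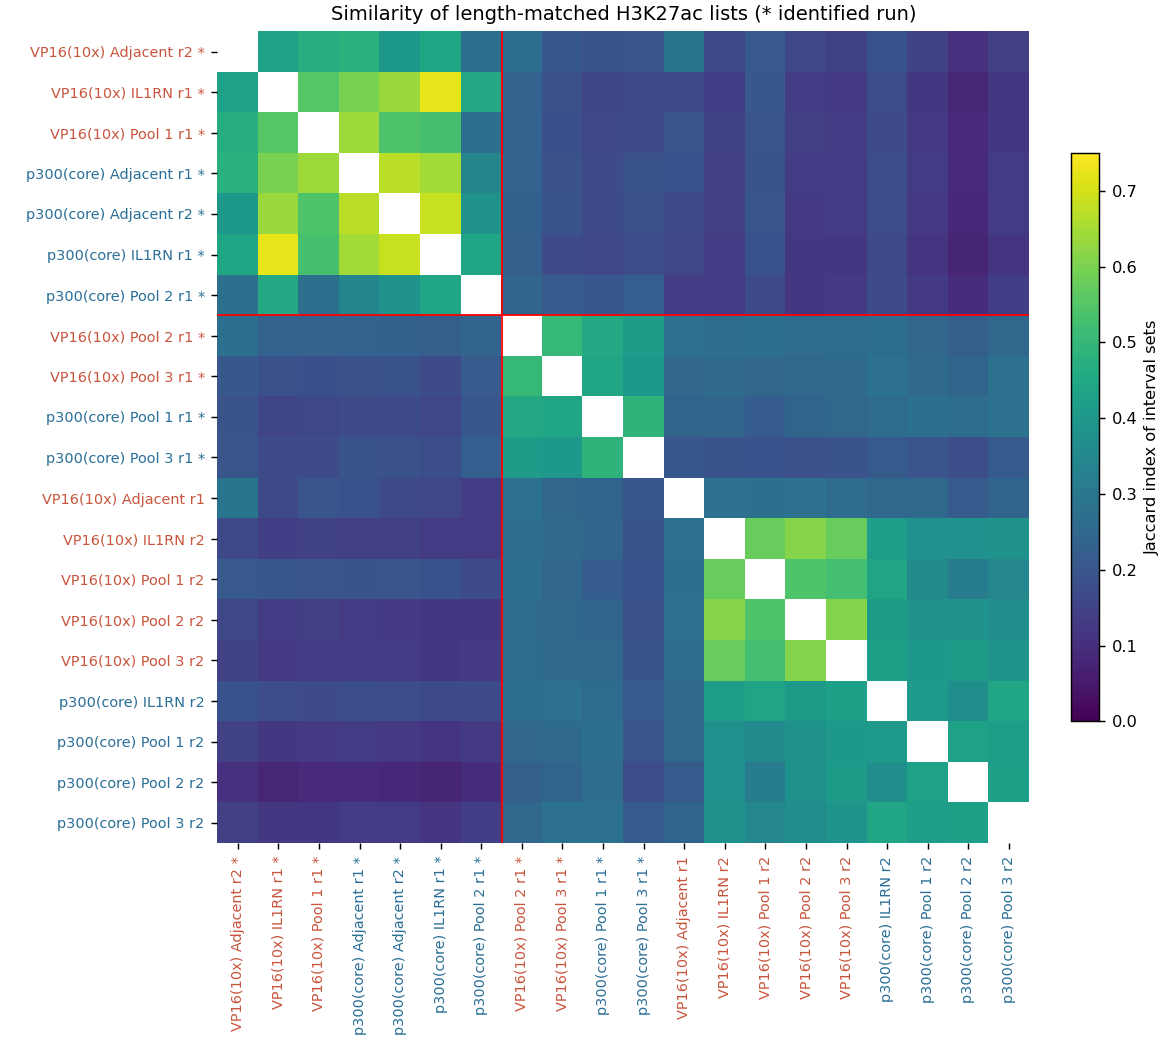
Jaccard index of the interval sets of each pair of H3K27ac lists, cut to 1805 peaks each, with dCas9-VP16(10x) names in red, dCas9-p300(core) names in blue and libraries of the run marked by an asterisk. Red lines divide the 7 libraries that stood apart from the other 13, and the brightest cell is the IL1RN replicate 1 pair of different constructs at 0.721.

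Within the run, the constructs differed without overlap in fold enrichment inside the EP300 gene itself. EP300 has 31 exons, and exons 17 to 30 (chr22:41550999-41572532), which encode residues 1048 to 1687 of the 2414 residues of p300, carried separate H3K27ac peaks at single exons in libraries of the run. The core of p300 in the dCas9 fusion is encoded by exons of this stretch. The stretch was set as the exons, after the first, with a peak in both dCas9-p300(core) lists of HA, the epitope tag on dCas9. It was chosen after its values were seen, so its values are given as a description with no test of their own.

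All 6 dCas9-p300(core) libraries of the run had peaks over 13 or 14 of these 14 exons. Their highest fold enrichment was 67.1 (Adjacent replicate 1), 77.0 (Pool 2), 78.3 (IL1RN), 89.8 (Pool 3), 90.1 (Pool 1) and 93.3 (Adjacent replicate 2). The highest peak of each ranked between the 95.4th and the 99.98th percentile of its list. The 5 dCas9-VP16(10x) libraries of the run also had peaks there, over 6 to 12 exons, but lower ones, with a highest enrichment of 26.3 (Adjacent), 28.1 (IL1RN), 40.2 (Pool 1), 40.2 (Pool 3) and 47.0 (Pool 2). The highest peaks of these 5 libraries ranked between the 50.6th and the 99.5th percentile of their lists, so in rank the groups overlapped. In fold enrichment the groups did not overlap. The mean of 82.6 ± 10.1 (SD, n = 6) was 2.27 times the mean of 36.4 ± 8.83 (SD, n = 5).

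Exon 24, printed above, and its neighbor exon 25 lay under the same peak, with an enrichment of 67.1 to 93.3 (median 84.1) with dCas9-p300(core) and 8.62 to 40.2 (median 26.3) with dCas9-VP16(10x). Exon 30, the last of the stretch, had 59.9 to 90.1 and 26.3 to 47.0. Exon 23 had 17.9 to 25.8 with dCas9-p300(core) and no peak in any dCas9-VP16(10x) library, and exon 21, the shortest at 57 bases, had a peak in 5 of 6 dCas9-p300(core) libraries and in no dCas9-VP16(10x) library. In these lists, exons outside the stretch carried no peak apart from the promoter, except for 1 exon in the library labelled dCas9-VP16(10x) Adjacent replicate 2. The promoter peak of EP300 did not differ beyond the spread, at 57.4 ± 35.7 (n = 6) with dCas9-p300(core) and 60.5 ± 38.3 (n = 5) with dCas9-VP16(10x) (exact permutation p = 0.892).

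Outside the run the exon peaks were missing altogether. None of the 4 libraries labelled dCas9-p300(core) without an identifier (replicate 2 of IL1RN, Pool 1, Pool 2 and Pool 3) had a peak over any of the 14 exons, and none of the 5 dCas9-VP16(10x) libraries had one, although 3 of 4 and 5 of 5 had the EP300 promoter peak. These 4 dCas9-p300(core) lists are the 4 shortest of the 20. In the other antibodies the peaks were also found in lists of the run, but there run and construct largely coincide. All 10 RNAPII lists of dCas9-p300(core) are from the run and had them (50.6 to 72.6), as did the 1 HA list of dCas9-VP16(10x) from the run (62.7). Both HA lists of dCas9-p300(core), also from the run, had them by the choice of the stretch (83.6 and 132). No other HA list had any, and 3 of the 10 RNAPII lists of dCas9-VP16(10x), none of which is from the run, had a peak over 1 exon of at most 8.11. Among the H3K27ac lists, presence of the exon peaks went with the run, and their fold enrichment within the run went with the construct. In the RNAPII lists run and construct cannot be told apart, and among the HA lists of dCas9-VP16(10x) the contrast rests on 1 list of the run. What part fusion plasmid DNA has in these peaks was not tested, and whether the libraries without an identifier differ by run or by content cannot be told apart.

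**Figure D3:**
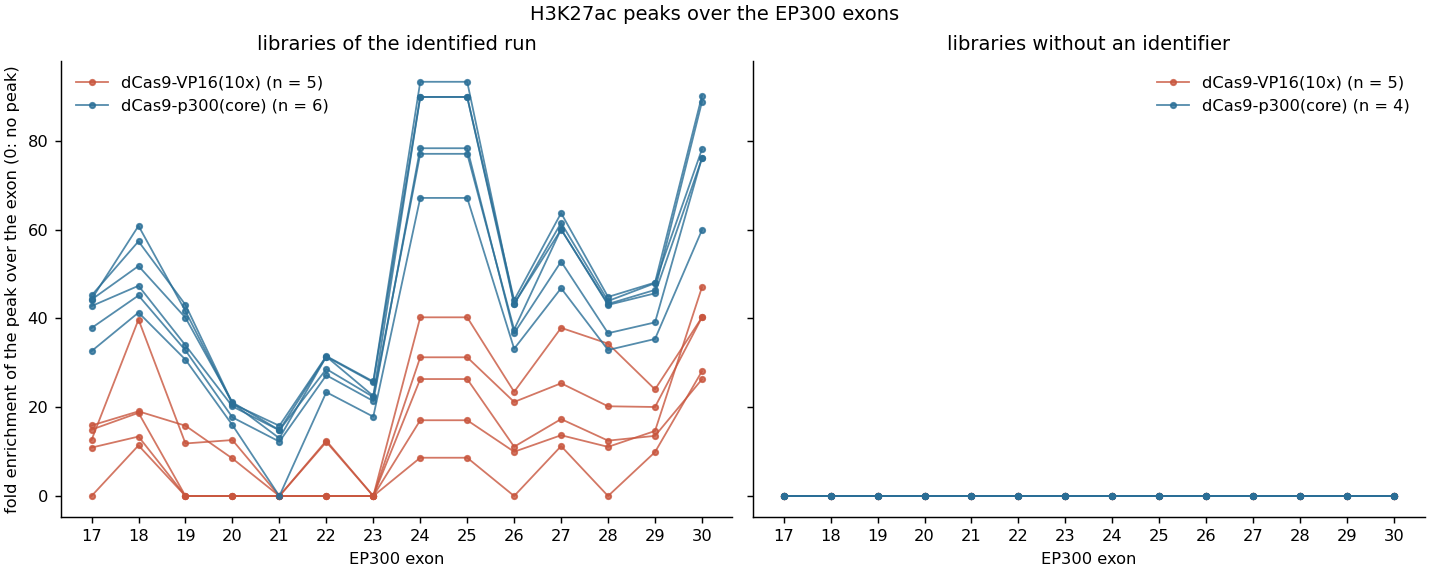
Fold enrichment of the H3K27ac peak over each EP300 exon from 17 to 30, with 0 where the list has no peak, in dCas9-VP16(10x) libraries (red) and dCas9-p300(core) libraries (blue). In the run (left) all 6 dCas9-p300(core) libraries lie above the 5 dCas9-VP16(10x) libraries at exons 24 and 25 (67.1 to 93.3 against 8.62 to 40.2), and the libraries without an identifier (right) have no peak at any of these exons.

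Within the run, EP300 exons made up most of the intervals at which every dCas9-p300(core) library exceeded every dCas9-VP16(10x) library in fold enrichment. Of 21996 intervals compared with a missing peak taken as 0, 16 were of this kind (0.0727%), and 11 of the 16 were EP300 exon intervals. The other 5 lay near TOM1 and HDGFL2 (in exons), HGSNAT, GOLGA6L6 and TP53TG3B. None of the 16 was at a promoter, and 15 had no peak in any list without an identifier. The reverse was more frequent, with 324 intervals (1.47%) at which every dCas9-VP16(10x) library was above every dCas9-p300(core) library, 25.9% of them at promoters. Fold enrichment was neither ranked within lists nor adjusted for peak number here. The median enrichment of a list in the run was 10.5 to 27.4 with dCas9-VP16(10x) and 8.98 to 18.7 with dCas9-p300(core). The part of such list-wide differences in these counts was not tested.

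The intervals that were higher in dCas9-VP16(10x) without overlap were led by a site 96322 bp from the start of PXDN, a peroxidase of the extracellular matrix. Its enrichment was 40.8 to 61.1 (median 56.1) with dCas9-VP16(10x) against 9.89 to 27.3 (median 12.9) with dCas9-p300(core) in the run. An intron of KRT86, in the type II keratin cluster, had 30.2 to 38.2 against 18.97 to 29.6. The promoter of STAG2, a cohesin subunit gene, had 29.6 to 93.1 against 14.9 to 26.0. These differences were not carried by absence, since all 6 dCas9-p300(core) libraries of the run had a peak at each of these 3 sites.

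In the full lists, peaks seen with a single construct were common, in lists of very unequal length. Of the 41643 intervals, 16751 were found with dCas9-VP16(10x) alone, 7225 with dCas9-p300(core) alone and 17667 with both. Only 566 intervals were in all 20 lists, 62.9% of them at promoters, whereas 12280 were in a single list, 16.1% of them at promoters. An exact test of occurrence in the full lists, stratified by batch, called 6719 of 29363 intervals as more frequent with dCas9-VP16(10x) (22.9%) and 5 as more frequent with dCas9-p300(core) (0.017%). Of the former, 50.6% were promoters, against 49.8% of all intervals tested.

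The 5 intervals more frequent with dCas9-p300(core) stood against this difference in list length. The first lies 31505 bp from the start of TP53TG3B (chr16:33293625-33294561) and had a peak in 9 of 10 dCas9-p300(core) lists, 3 of the 4 without an identifier included, and in no dCas9-VP16(10x) list (adjusted p = 0.0257, exact test). Its enrichment was 6.88 to 48.4 with a median of 9.78. The other 4 had peaks in the 6 dCas9-p300(core) lists of the run and in no other list (adjusted p = 0.0334, exact test), and they were EP300 exon 23, an exon of HDGFL2 (chr19:4492220-4494535), an exon of TOM1 (chr22:35738663-35740532) and a site 57231 bp from HGSNAT.

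In all, 13 intervals were in at least 5 dCas9-p300(core) lists and in no dCas9-VP16(10x) list, against 3810 the other way round (0.0312% and 9.15% of 41643). None of the 13 was at a promoter, and 2 were EP300 exons. Of the 13, 6 lay within 5 Mb of the largest assembly gap of their chromosome, where repeats abound, against 5.60% of all intervals. Median enrichment at the 13 ran from 2.86 to 22.4, and 7 of the 13 had an RNAPII peak in at least 1 list. The authors kept only reads that aligned to a single place in the genome.

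With dCas9-VP16(10x), 15 intervals were in all 10 lists and in no dCas9-p300(core) list, 4 of them at promoters. A site in ATP1A4, a sodium pump subunit gene, had an enrichment of 11.1 to 29.2 (median 24.7), a site 1371 bp from MAL 13.7 to 36.5 (median 21.2), and a site 85182 bp from PTCHD1 9.27 to 26.9 (median 18.2). Promoters of PAFAH2, MID1 and ZNF649, and a site 305 bp from a start of SLC14A2, a urea transporter gene, were also among them, with medians of 16.6, 15.8, 13.1 and 13.2. Of the 15, 14 had an RNAPII peak in at least 1 list. The share of all intervals with an RNAPII peak is not given here, so the RNAPII counts at named intervals are description only.

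When the lists were cut to equal length, no interval passed the test of occurrence. At 1805 peaks a list, 4799 intervals were in at least 2 lists and were tested, and 0 were called in either direction at an adjusted p of 0.05 (0% higher with dCas9-VP16(10x) and 0% higher with dCas9-p300(core), exact test, lowest adjusted p 0.721). At an unadjusted p under 0.05, 210 were more frequent with dCas9-VP16(10x) (4.38%), and 36 were more frequent with dCas9-p300(core) (0.75%). Of all tested intervals, 2138 were in more dCas9-VP16(10x) lists, 1666 in more dCas9-p300(core) lists and 995 in as many of each. These unadjusted counts moved with the settings, to 223 and 127 for windows around the summits, to 553 and 22 where peaks had to cover at least 20% of an interval, and to 79 and 6 without batch strata. They also moved with single libraries, to 121 to 221 and 12 to 23 without any 1 of the 9 lists that carry no identifier (131 and 12 without dCas9-VP16(10x) Pool 1 replicate 2), against 181 to 221 and 32 to 45 without any 1 list of the run. Promoters made up 70.2% of the tested intervals, 60.0% of the 210 and 55.6% of the 36. Only 35 intervals were among the strongest 1805 in all 20 lists.

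**Figure D4:**
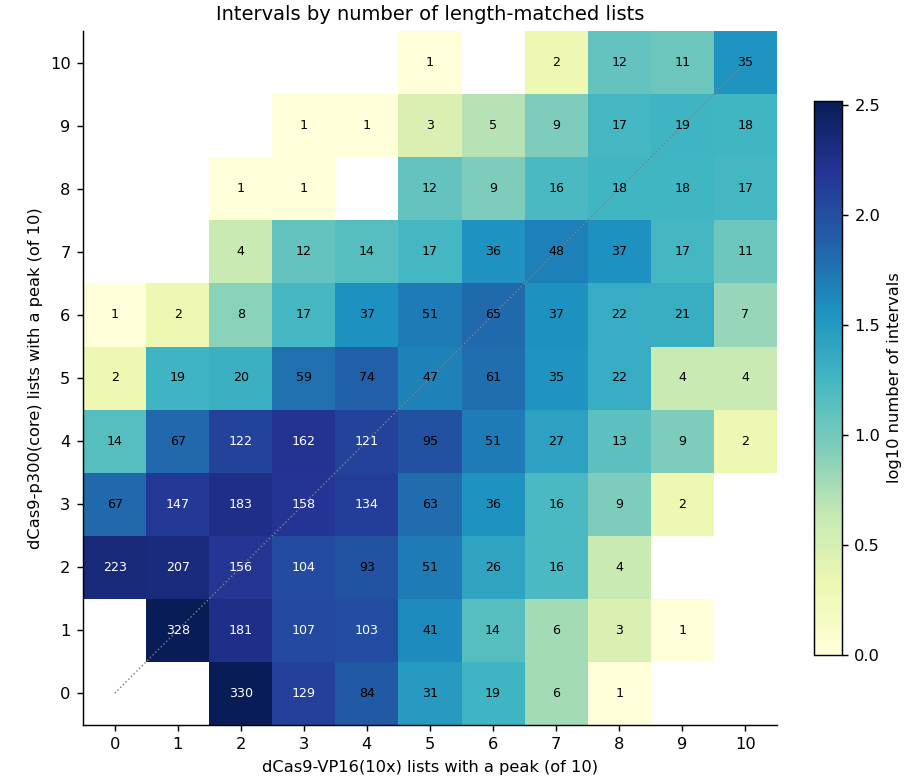
Number of intervals by how many of the 10 dCas9-VP16(10x) lists (horizontal) and of the 10 dCas9-p300(core) lists (vertical) hold a peak, in lists cut to 1805 peaks, with color for the log10 number and a dotted line for equal occurrence. Intervals lie on either side of the line (2138 and 1666), 35 are in all 20 lists, and none is in 10 lists of one construct and 0 of the other.

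Restricting the test to the run or leaving out the 7 libraries gave no call either, but neither test had much room for one. The smallest p that 5 against 6 lists allow is 0.0022 (exact test). Adjustment over 8540 intervals could then pass only if a large number of them reached it together. In the run, with 5322 peaks a list, 0 of 8540 intervals were called in either direction (0% and 0%). Of these, 29 had an unadjusted p under 0.05 with more dCas9-VP16(10x) lists (0.34%) and 4 with more dCas9-p300(core) lists (0.0468%), and 925 were in all 11 lists. Leaving out 1 library raised these counts, to 46 to 93 and 6 to 12 without a dCas9-VP16(10x) library (93 and 11 without IL1RN replicate 1), and to 45 and 6, 36 and 16, and 38 and 15 without dCas9-p300(core) Adjacent, Pool 1 and Pool 3 replicate 1 (30 to 36 and 4 without any of the other 3). In the run, 3 intervals were in all 5 dCas9-VP16(10x) lists and no dCas9-p300(core) list (an exon of WDR18, an intron of INPP5A and the promoter of PLEKHO2), and 1 was in all 6 dCas9-p300(core) lists and no dCas9-VP16(10x) list (199118 bp from GOLGA6L6). Without the 7 libraries, 0 of 3416 were called in either direction (0% and 0%), with 198 (5.8%) and 45 (1.32%) at an unadjusted p under 0.05. The lowest p there was 0.0013 (exact test).

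The intervals of lowest p that were more frequent with dCas9-VP16(10x) are named although none passed the adjusted threshold (adjusted p 0.721 each, exact test). The promoter of PLEKHG3, a guanine nucleotide exchange factor gene, was among the strongest peaks in 8 dCas9-VP16(10x) lists and 0 dCas9-p300(core) lists. Its enrichment was 9.76 to 53.1 in the 10 dCas9-VP16(10x) lists that had it at any rank and 6.20 to 10.4 in the 6 dCas9-p300(core) lists that had it. The promoter of COL26A1, a collagen gene, was in 9 and 1 lists (15.4 to 109 and 7.91 to 68.3 at any rank). An exon of MEGF6, a site 42485 bp from HS6ST1, a site 104692 bp from ADRA2C and an intron of TPCN2 were each in 7 and 0 lists. Only 3 of the 10 named intervals were promoters (PLEKHG3, COL26A1 and CTDNEP1), the remaining 3 being an intron of INPP5A and a pair of sites 193457 and 147436 bp from NTMT1. All 10 had an RNAPII peak in at least 7 of the 10 RNAPII lists of dCas9-VP16(10x) and in 2 to 10 of those of dCas9-p300(core).

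The intervals of lowest p that were more frequent with dCas9-p300(core) had adjusted p-values of 0.799 to 0.929 (exact test), and 6 of 10 were promoters. An intron of PDE7B, a cAMP phosphodiesterase gene, was among the strongest in 0 dCas9-VP16(10x) and 5 dCas9-p300(core) lists. In the full lists it was present in 10 and 9, with an enrichment of 9.08 to 29.5 and 8.48 to 15.4, so that its place in the lists differed rather than its presence. The promoter of ANXA3, an annexin gene, was in 5 and 10 lists, that of SH3GLB1 in 0 and 6, and that of BAG3, a co-chaperone gene, in 0 and 5. The promoter of JMJD1C, a histone demethylase family gene, was in 1 and 6 lists and that of MAFG, a small Maf factor gene, in 2 and 8. HNRNPL had 4 and 9, sites in ARID2 and INPP4B had 3 and 9 and 1 and 5, and the interval over EP300 exons 24 and 25 had 1 and 6. In the full lists, ANXA3, HNRNPL and ARID2 were present in 10 and 10, SH3GLB1 in 10 and 8 and BAG3 in 9 and 6. There MAFG was in 10 and 9, INPP4B in 9 and 8, JMJD1C in 8 and 10 and the EP300 interval in 5 and 6. At any rank, the highest fold enrichment was larger with dCas9-VP16(10x) at ANXA3 (133 against 102), MAFG (138 against 99.6) and HNRNPL (118 against 83.4). It was also larger at ARID2 (85.0 against 70.8), JMJD1C (29.4 against 16.5), INPP4B (26.2 against 13.1) and BAG3 (83.2 against 81.7). With dCas9-p300(core) it was larger at SH3GLB1 (79.7 against 76.0) and the EP300 interval (93.3 against 40.2).

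Motif shares at the summits differed between promoters and other sites and between the sets of intervals, and these differences were not tested. In windows of 300 bases, GGGCGG was in 54.4% of all 4799 tested intervals, in 68.5% of the promoters and in 21.1% of the rest, with both strands searched. It was in 52.4% of the 210 intervals with more dCas9-VP16(10x) lists and in 30.6% of the 36 with more dCas9-p300(core) lists. TGANTCA, the AP-1 motif, was in 4.90% of all, 3.32% of the promoters and 8.61% of the rest. It was in 2.86% of the 210 and 16.7% of the 36, the last being 6 windows. CCAAT, the NF-Y motif, was in 16.5% of all, 12.8% of the promoters and 25.2% of the rest. It was in 18.6% of the 210 and 27.8% of the 36. GGAATG, the TEAD motif, was in 10.98% of all, 8.78% of the promoters and 16.2% of the rest. It was in 13.3% of the 210 and 13.9% of the 36. The motif of the estrogen receptor (ERE, full palindrome) was in 1 of the 4799 windows. A match describes letters only, and the median GC content was 69.3% in all, 64.2% in the 210 and 58.0% in the 36.

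At the 566 intervals with a peak in all 20 lists, the fold enrichment was ranked within each list as a percentile of all its peaks and fitted with limma on construct, run and log2 peak number. No interval was called in either direction (0% and 0% of 566, lowest adjusted p 0.117 by limma), but 86 were called without the dCas9-VP16(10x) IL1RN replicate 1 library, 44 without dCas9-p300(core) Pool 1 replicate 1 and 3 without dCas9-p300(core) Pool 3 replicate 2. At an unadjusted p under 0.05, 109 were higher with dCas9-VP16(10x) (19.3%), and 12 were higher with dCas9-p300(core) (2.12%). The fitted difference was above 0 at 414 and below 0 at 152, with a median of 6.24 percentile points, and the median was 1.93 points at the 356 promoters and 22.7 points at the 210 other intervals. The direction of the median depended on the scale. Ranked over the 566 intervals alone, 27 and 21 had an unadjusted p under 0.05 by limma, and the median difference was -0.93 points over all, -6.08 at promoters and 9.39 at the others. Without the 7 libraries that stood apart, the counts were 37 and 38 of 668 and the median 0.12 points, and within the run they were 177 and 33 of 2065 with no call and a median of 3.82 points. Without log2 peak number in the fit, 63 were called as higher with dCas9-VP16(10x) (11.1%) and 0 as higher with dCas9-p300(core) (0%), with a median of 14.2 points. The fitted slope on log2 peak number was above 0 at 382 intervals and below 0 at 184 (177 and 19 called by limma), and peak number and construct can be told apart only in so far as the list lengths overlap.

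**Figure D5:**
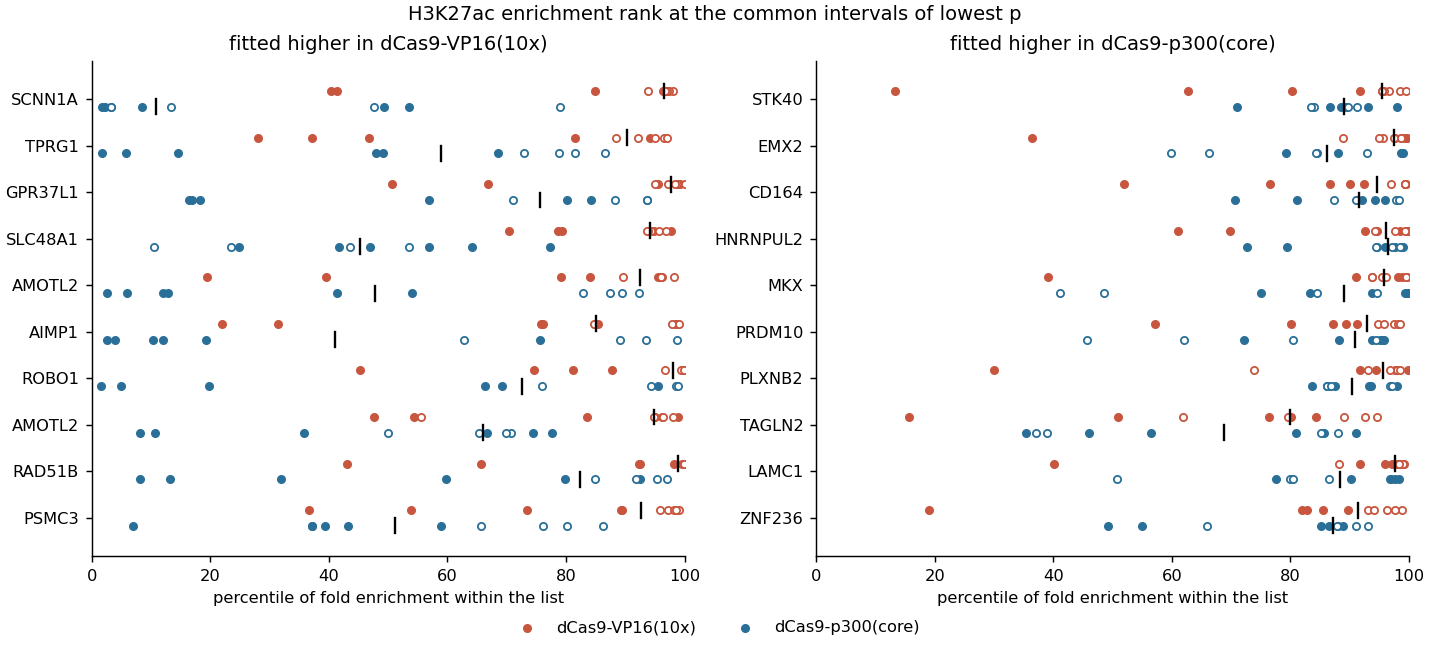
Percentile of fold enrichment within the list at the 10 common intervals of lowest p in each fitted direction, for dCas9-VP16(10x) libraries (red) and dCas9-p300(core) libraries (blue). Filled points are libraries of the run, open points are libraries without an identifier and black bars are medians. At SCNN1A the medians are 96.5 and 10.9, whereas on the right 9 of 10 medians are higher with dCas9-VP16(10x) although the fit, which allows for peak number, is in the other direction.

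The lowest p was at SCNN1A, the gene of a subunit of the epithelial sodium channel, in an interval that also reaches LTBR. Its percentile was 40.4 to 97.97 (median 96.5) with dCas9-VP16(10x) against 1.69 to 79.0 (median 10.9) with dCas9-p300(core). The ranges overlapped, and the run medians were 84.9 and 5.88. The fitted difference was 58.6 ± 14.1 points (SE; adjusted p = 0.117 by limma). Of the 10 intervals of lowest p in this direction, 4 were promoters (SCNN1A, the heme transporter gene SLC48A1, AIMP1 and the proteasome gene PSMC3), and the others lay in or near TPRG1, GPR37L1, AMOTL2 (a pair of sites), ROBO1 and RAD51B. Their fitted differences ran from 30.4 to 58.6 points, and the medians as measured were in the same direction at all 10.

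All 10 intervals of lowest p in the other direction were promoters, with fitted differences of 13.4 to 28.2 points and adjusted p-values of 0.117 to 0.213 by limma. STK40, a pseudokinase gene, led with a fitted difference of -28.2 ± 7.77 points (SE), at percentiles of 13.3 to 99.6 (median 95.4) with dCas9-VP16(10x) against 71.1 to 97.97 (median 89.0) with dCas9-p300(core). The others were EMX2, CD164, HNRNPUL2, MKX, PRDM10, PLXNB2, TAGLN2, LAMC1 and ZNF236. The median as measured was higher with dCas9-VP16(10x) at 9 of these 10, and the fitted direction turned at 6 of them without log2 peak number, so their direction depends on the allowance for list length. RNAPII peaks were present in at least 9 of 10 lists of each construct at these 10 promoters.

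Gene groups were compared by how many of the 10 lists of each construct, cut to 1805 peaks, had a peak at the promoter, as counts beside the 2138 to 1666 split of all tested intervals. That split covers intervals of every kind and not promoters alone. No split of all intervals within the run is given here, so counts of gene groups within the run are description only. Of 10 protein folding stress genes, 6 were in more dCas9-p300(core) lists and 2 in more dCas9-VP16(10x) lists, with HSP90AB1 in 4 dCas9-VP16(10x) and 7 dCas9-p300(core) lists, HSPH1 in 3 and 6 and DDIT3 in 3 and 6. Within the run, at 5322 peaks a list, HSP90AB1 and HSPH1 were in all 11 lists, DDIT3 was in 4 of 5 and 6 of 6, and 4 of the group were in a larger share of dCas9-p300(core) lists and 2 in a larger share of dCas9-VP16(10x) lists. Of 10 cell cycle genes, 6 were in more dCas9-VP16(10x) lists and 1 in more dCas9-p300(core) lists, with CCND1 (cyclin D1) in 5 and 0 and MCM2, a helicase subunit gene, in 3 and 0. Within the run 7 were in a larger share of dCas9-VP16(10x) lists and 2, PCNA (2 of 5 and 4 of 6) and MCM2 (0 and 1), in a larger share of dCas9-p300(core) lists. There CCND1 was among the 5322 strongest peaks in 5 of 5 dCas9-VP16(10x) and 0 of 6 dCas9-p300(core) lists, and CDK1 in 4 and 0, whereas at any rank they had a peak in 3 and 4 dCas9-p300(core) lists of the run. These counts take peaks within 1 kb of a start and not merged intervals. No interval at CCND1 was among the 3 merged intervals in all 5 dCas9-VP16(10x) lists and no dCas9-p300(core) list of the run.

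Sterol synthesis genes split evenly, with 3 and 4 of 10 in more lists of either construct. HMGCS1, an early enzyme of the pathway, was in 8 and 3 lists. Of 12 genes of the acetylation machinery, 4 were in more dCas9-VP16(10x) lists and 3 in more dCas9-p300(core) lists, with BRD2, a bromodomain reader, in 5 and 0 and the EP300 promoter in 6 and 8. Of 10 genes of VP16 partners, 1 and 1 differed, and HCFC1, the host cell factor that VP16 binds, was in all 20 lists. Of 12 immediate early genes 4 and 2 differed, of 10 p53 targets 4 and 1, and of 10 epithelial genes 5 and 2. Of 10 endometrial genes 3 and 2 differed, of 10 genes of other lineages 0 and 0, of 10 NF-kB targets 2 and 0, and of 12 interferon-stimulated genes 2 and 0.

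Some promoters had a peak, at any rank, with a single construct only. HSPA1A, an inducible HSP70 gene with the near-identical copy HSPA1B, had a promoter peak in 9 dCas9-VP16(10x) and 0 dCas9-p300(core) lists, 4 of the 9 from the run. HSPA1B had one in 10 and 8. Reads that aligned to both copies were discarded by the authors. The interferon-stimulated genes IFIT2, IFIT3 and IRF9 had one in 5, 6 and 6 dCas9-VP16(10x) lists and in 0 dCas9-p300(core) lists, all 5 dCas9-VP16(10x) lists without an identifier among them. A peak in at least 5 dCas9-VP16(10x) and 0 dCas9-p300(core) lists was found at 9.15% of all 41643 intervals. Since these counts use lists of unequal length, they describe the lists and not the constructs alone.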

How the data were processed

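The authors aligned ChIP-seq reads to hg19, kept reads with a single place of alignment, removed duplicates and deposited 1 narrowPeak list per sample. The submitters' processing notes name Bowtie 1.1.2 and MACS2 2.1.0.20140616, besides SAMtools and bedtools, without roles. The deposited lists give each peak's fold enrichment over background (a ratio), its -log10 p and its -log10 q. No peak had a -log10 p under 10.0. They hold no reads or depths. H3K27ac lists were analysed. RNAPII and HA lists were used for description only, and both HA lists of dCas9-p300(core) set the stretch of EP300 exons. The table of normalized signal was not used.

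Peaks were merged at 1 bp overlap and intervals within 5 kb of the 19 targeted loci were left out. For occurrence and similarity, lists were cut to the 1805 peaks of highest enrichment (5322 within the run). For occurrence, intervals in at least 2 lists were tested by an exact conditional test stratified by the run identifier, two-sided, with Benjamini-Hochberg adjustment. Percentiles of enrichment at the 566 intervals common to all lists were fitted with limma 3.58.1 (R 4.3.3) on construct, run and log2 peak number. Values per list were compared by exact permutation of the constructs within batches, two-sided (58212 relabellings over all lists, 462 within the run). Other computations used Python 3.11.15 with numpy 2.4.6, scipy 1.17.1 and pandas 2.3.3. The occurrence test, the permutation test of values per list, the limma fit and the similarity test were tried on simulated data. The checks behind the flagged results below were not.

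The intervals named are the 10 of lowest p in each direction of each test, with ties by the larger difference, whether or not they passed. Further intervals were named by their counts in the full lists or within the run, after their values were seen. An interval took the gene with a protein-coding transcript start within 1 kb, or the nearest start with its distance, from 76077 starts of 19662 genes on hg19. The 12 gene lists hold 126 genes, of which CXCL1 and DDX58 were not matched. The sequence at 1 interval and the values of some list members are not reported here. The members, the lists and the genes in them were chosen with earlier results of these data known.

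Alternatives were other list lengths, rankings, thresholds, overlaps, covariates and strata, the replicate number as a block, and leaving out each library. The EP300 comparison, the omission of the 7 libraries that stood apart, the omission of the list whose names and title disagree and the percentile over the common intervals alone were added after seeing the data. No pair of lists shared more than 0.0188% identical peaks.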

Additional observations from a re-analysis of the deposited data

Results flagged for a closer look

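The number of peaks in the dCas9-VP16(10x) Pool 3 replicate 1 list, 12.4 on the log2 scale (5322 peaks), stood far below the other 9 lists of its construct, with a gap of 0.629 of the whole range. The share of peaks at promoters in the dCas9-VP16(10x) IL1RN replicate 1 list, 69.6%, stood far above the other 9, with a gap of 0.485 of the range. These are 2 of 10 groups examined for a single sample far from the rest, and chance gives about 1 in 20.

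The difference between constructs in log2 peak number was larger by 2.73 among lists without a run identifier than within the run (two-sided exact permutation p = 0.0257 over 58212 relabellings). The corresponding differences were 97.8 bp for median width (exact permutation p = 0.416) and 9.23 percentage points for the promoter share of lists cut to 1 length (exact permutation p = 0.493).

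The HA list of dCas9-VP16(10x) Adjacent replicate 2, which no comparison used, had peaks over 12 of the 14 EP300 exons with a highest enrichment of 62.7, while none of the 4 HA lists of dCas9-VP16(10x) outside the run had any.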

How the results depend on the processing

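No interval was called for occurrence under any alternative except the full lists (6724 intervals). The tests within the run and without the 7 libraries had little room for a call. The difference in peak number (1.57) and in width (157 bp) lost its call within the run alone (0.40 and 127 bp), and kept it without each library in turn (1.35 to 1.79, and 136 to 177 bp). The promoter share turned within the run (-1.19 points) and ranged from -0.73 (without dCas9-p300(core) Pool 2 replicate 2) to 2.79 points without 1 library, and from 0.163 to 5.99 in lists cut to 1 length, with no p under 0.05. The similarity difference (0.0091) turned within the run (-0.024, at 5322 peaks a list). It passed the test in full lists (0.127) and without the 7 libraries (0.0366), and was 0.00065 to 0.0194 without 1 library. Calls of enrichment rank numbered 63 without log2 peak number, 1 on centred log2 enrichment, 55 over intervals in at least 15 lists and 3 without the 7 libraries. Without 1 library they ranged from 0 to 86, with 86 without dCas9-VP16(10x) IL1RN replicate 1, 44 without dCas9-p300(core) Pool 1 replicate 1 and 3 without dCas9-p300(core) Pool 3 replicate 2. Ranked over the 566 intervals alone there was no call (27 and 21 at an unadjusted p under 0.05 by limma), and the median difference was -0.93 points over all, -6.08 at promoters and 9.39 at other intervals. The EP300 exon difference (-46.2 in highest enrichment, no test) was -49.3 to -43.7 without 1 library and -46.4 without the 7 libraries. The cause of these changes was not tested.

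With the replicate number as a replicate block, 0 intervals were called for occurrence and 0 for enrichment rank, and the differences in peak number (1.57), width (157 bp), promoter share (1.14 and 3.01 points) and similarity (0.0091) kept their side of the threshold. The deviations of same-numbered libraries correlated at -0.206 (Adjacent), 0.774 (IL1RN), 0.0919 (Pool 1), 0.437 (Pool 2) and 0.437 (Pool 3), so the numbers were not taken as pairs.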
